A study of Mus musculus with 6 samples.

Results

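The nuclear receptor genes of mouse C2C12 muscle cultures are described here, leaving out the peroxisome proliferator-activated receptors, estrogen-related receptor alpha and the receptors of the circadian clock. The 35 genes were chosen by name, as the rows of the gene count table that carry those symbols, out of 54924 genes in the table. Of the 35 genes, 23 passed the filter on low counts and were tested, among 14558 genes tested in all. The other 12 had too few reads for a test.

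Nuclear receptors are transcription factors that in most cases bind a small fat-soluble ligand, such as a steroid, a retinoid, thyroid hormone, vitamin D or an oxysterol. Many of them bind DNA as a dimer with a retinoid X receptor, and they raise or lower transcription by recruiting coactivators or corepressors. In skeletal muscle, glucocorticoid, thyroid hormone and retinoid receptors are known for roles in protein turnover, fibre type and differentiation, and the NR4A receptors for a rapid response to contraction and adrenergic signals. Kaempferol is a plant flavonol, and flavonols have been studied as weak ligands of estrogen receptors.

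The study asked how kaempferol changes gene expression in muscle cells. Cultures treated with 25 μM kaempferol for 24 h (3 libraries) were compared with cultures without kaempferol (control, 3 libraries). C2C12 is an established mouse myoblast line, and all cultures were switched to a low-serum horse serum medium for 6 days to form myotubes and were then replated in multi-well plates before the treatment. The labels name the line C2C13 for the kaempferol libraries and C2C12 for the controls, which is taken here as 1 line, and a treatment tag reads dedifferentiation while the titles name myotubes. The labels name no vehicle for the control cultures. The labels do not say that replicates came from separate cultures, so the p-values measure only the spread between these libraries.

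The libraries held 17242977, 16575790 and 18625272 counted reads with kaempferol and 17500628, 18105856 and 16869364 in the controls. Levels are given as CPM, the reads of a gene scaled to a common library size with TMM factors, and fold changes as log2 of kaempferol over control, with a gene called at an adjusted p under 0.05. Over all tested genes, 11.3% were called higher and 12.6% lower with kaempferol. Transcripts of the myotube genes Acta1 and Myog, for skeletal actin and myogenin, lay at 219 to 239 and 35.9 to 44.1 CPM with kaempferol and at 176 to 218 and 31.7 to 35.5 CPM in control, while the adult myosin gene Myh4 stayed under 1 CPM with kaempferol and between 1.39 and 2.06 CPM in control. Of 10 tested myotube markers, 2 were called higher (Acta1 and Myog) and 1 lower (Myh4), and the median log2 fold change was -0.03. These calls made up 20.0% higher and 10.0% lower, against 11.3% and 12.6% of all tested genes. The Myog call was lost without kaempferol replicate 2 (0.23) or control replicate 1 (0.27). Markers of dividing cells were present in every library. All 6 were called lower with kaempferol, against 12.6% of all tested genes. Summed, they lay at 1536 to 1623 CPM with kaempferol and 2029 to 2151 CPM in control. Their part in any change of a receptor was not tested, and in a bulk culture fewer cells of a kind and less RNA per cell cannot be told apart.

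Among the 23 tested receptors, 1 was called higher with kaempferol (4.35%, against 11.3% of all tested genes) and 4 were called lower (17.4%, against 12.6%). The shares therefore lay on either side of the background, and the 5 calls together made up 21.7% of the tested receptors, against 24.0% of all tested genes. The vitamin D receptor gene Vdr was the one that rose. The genes that fell were Rara and Rarg for retinoic acid receptors alpha and gamma, Nr3c1 for the glucocorticoid receptor and Nr2c2 for testicular receptor 4. In mm10, Vdr lies at chr15:97854425-97910630, Rara at chr11:98927818-98974942, Rarg at chr15:102234938-102257517 and Nr2c2 at chr6:92091390-92174294. The median log2 fold change of the tested receptors was -0.03, with 11 values above 0 and 12 below.

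The upstream sequences of the called genes other than Nr3c1 are shown because their letters can be read beside the levels that follow. Of the 35 genes, 33 had windows in the RefSeq promoter table (build GRCm38.p6), 51 windows in all. The first 250 bases of each window, up to the base before the annotated start, are printed for Rara (chr11:98937446-98937695, plus strand), Rarg (chr15:102257523-102257772, minus strand), Vdr (chr15:97908297-97908546, minus strand) and Nr2c2 (chr6:92092183-92092432, plus strand), each read 5′ to 3′ on the strand of its gene. Where a gene had several windows, the one furthest upstream is printed. Capitals mark the GC box, GGGCGG on either strand, a motif bound by Sp-family factors that was picked for display after the values were seen.
Rara: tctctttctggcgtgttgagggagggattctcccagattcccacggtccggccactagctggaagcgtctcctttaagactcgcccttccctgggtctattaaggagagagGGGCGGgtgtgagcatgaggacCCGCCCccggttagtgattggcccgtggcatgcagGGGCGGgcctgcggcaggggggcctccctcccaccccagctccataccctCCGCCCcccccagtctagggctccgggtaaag
Rarg: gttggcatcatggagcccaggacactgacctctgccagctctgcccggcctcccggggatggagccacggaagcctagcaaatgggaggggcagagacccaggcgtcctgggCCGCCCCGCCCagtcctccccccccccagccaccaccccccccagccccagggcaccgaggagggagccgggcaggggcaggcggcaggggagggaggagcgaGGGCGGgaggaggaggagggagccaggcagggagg
Vdr: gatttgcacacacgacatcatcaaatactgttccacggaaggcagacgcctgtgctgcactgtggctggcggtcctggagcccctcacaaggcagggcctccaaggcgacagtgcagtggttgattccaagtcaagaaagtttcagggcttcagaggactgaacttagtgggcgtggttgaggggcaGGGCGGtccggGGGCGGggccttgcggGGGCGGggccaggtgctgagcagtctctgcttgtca
Nr2c2: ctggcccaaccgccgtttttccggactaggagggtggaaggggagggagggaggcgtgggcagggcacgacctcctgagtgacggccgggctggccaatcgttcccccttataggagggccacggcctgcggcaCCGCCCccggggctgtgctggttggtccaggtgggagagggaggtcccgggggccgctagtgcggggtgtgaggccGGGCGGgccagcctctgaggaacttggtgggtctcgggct

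These stretches held 4 GC boxes for Rara, 3 for Rarg, 3 for Vdr and 2 for Nr2c2. Their GC content was 65.2%, 74.4%, 61.2% and 71.2% in that order, against a median of 52.4% over the first 250 bases of all windows. A GC box stood in 21 of the 51 receptor windows (41.2%) and in 32.7% of all 32851 windows. The gene that rose and the 3 shown genes that fell all carried it in the window printed, so its presence there did not separate the directions. A further Rarg window did not carry it. The receptor half-site AGGTCA, read on both strands, was found in 8 of the 51 receptor windows (15.7%) and in 14.0% of all windows, and among the shown genes in Rarg alone. The steroid receptor half-site AGAACA was found in 4 receptor windows (7.84%) and in 16.1% of all windows, and the cyclic AMP response element TGACGTCA in none of the 51 and in 1.55% of all windows. The CCAAT box, the dioxin-response core GCGTG and the antioxidant element TGACNNNGC were in 15, 21 and 5 receptor windows (29.4%, 41.2% and 9.8%), against 33.8%, 28.2% and 10.2% of all windows. A match of letters is a description of the window and does not show a binding site.

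To compare receptors with each other, levels were divided by gene length and given as CPM per kilobase, averaged over the 6 libraries. Rarg had the highest level of the 35 genes, 39.2 CPM per kilobase, which placed it at the 90.5th percentile of all tested genes. Next came Vdr at 20.0, Nr1h2 (liver X receptor beta) at 19.9, Nr2f6 at 17.2, Nr3c1 at 15.1, Rxra at 14.4 and Rxrb at 13.6 CPM per kilobase. Thra (thyroid hormone receptor alpha) at 10.9, Rara at 10.4 and Nr2f1 at 6.19 CPM per kilobase also lay above the median of all tested genes, which was 6.14. Nr2f2, Nr2c1, Nr4a2, Nr2c2 and Nr4a1 formed a middle group between 2.33 and 4.91 CPM per kilobase, and the remaining 8 tested receptors lay between 0.0994 (Nr3c2) and 0.735 (Esr1). The order of Vdr and Nr1h2 was not the same in both groups. Vdr was above Nr1h2 with kaempferol (21.9 ± 0.331 against 19.3 ± 0.354 CPM per kilobase) and below it in control (18.0 ± 0.485 against 20.4 ± 0.288 CPM per kilobase; SD, n = 3 each). Some neighbours overlapped in both groups, such as Nr2f2 and Nr2c1 or Esr1 and Nr6a1, whereas Rarg stood above every other receptor in all 6 libraries.

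**Figure D1:**
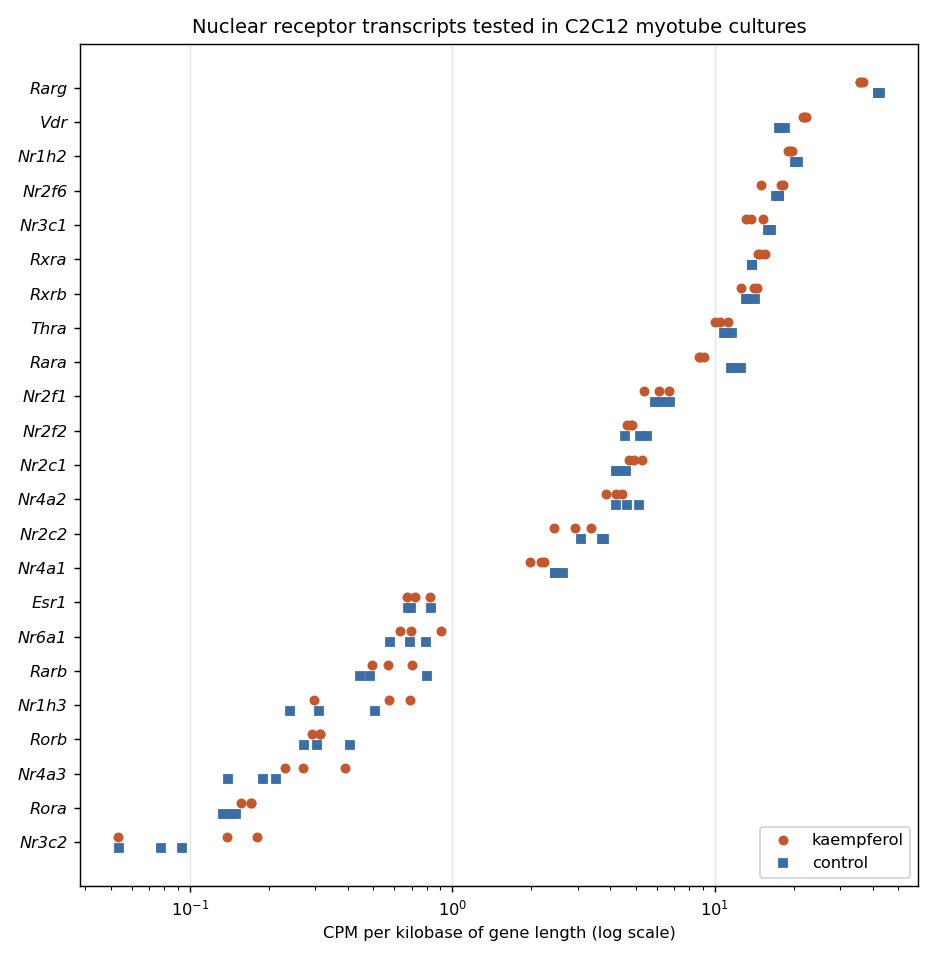
Level of each tested nuclear receptor gene in CPM per kilobase of gene length on a log axis, with 1 circle for each kaempferol library and 1 square for each control library. Rarg stands at the top at 39.2 CPM per kilobase on average and Nr3c2 at the bottom at 0.0994.

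The retinoic acid receptors, which bind all-trans retinoic acid and pair with retinoid X receptors, held the 2 genes called lower in the retinoid group. Rara had 38.3, 37.9 and 39.8 CPM with kaempferol, against 51.8, 50.4 and 54.8 CPM in control. The highest kaempferol library lay well below the lowest control library. Rara was 0.739 times the control level with kaempferol (log2 fold change -0.44, standard error 0.0639, adjusted p = 6.83e-05 by the edgeR quasi-likelihood test), and it stayed lower in all 12 alternative settings, between -0.46 and -0.41. Rarg had 157, 152 and 152 CPM with kaempferol, against 179, 179 and 182 CPM in control. The groups were separate here as well, and Rarg fell by 0.23 on the log2 scale (standard error 0.0437, adjusted p = 0.00102 by edgeR), with values between -0.24 and -0.20 in the alternatives. Rarb, the retinoic acid receptor that is itself induced by retinoic acid in many cells, had 2.99, 3.71 and 2.60 CPM with kaempferol and 4.22, 2.56 and 2.35 CPM in control. The Rarb groups overlapped and the difference did not pass the test (log2 fold change 0.02, standard error 0.245), and 34.06% of the Rarb exon bases are shared with Top2b on the opposite strand.

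Summed over the 3 retinoic acid receptor genes, the level per length was 46.2, 45.1 and 45.4 CPM per kilobase with kaempferol, against 54.6, 54.0 and 55.8 CPM per kilobase in control. Rarg supplied 79.3% ± 0.477 of that sum with kaempferol and 77.1% ± 0.573 in control (SD, n = 3 each), and Rara 19.4% ± 0.571 with kaempferol and 21.9% ± 0.584 in control. In the retinoic acid receptor transcripts Rarg was thus the main form in both groups, and the larger relative decrease of Rara left it with a smaller share.

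The retinoid X receptors, the shared dimer partners, did not pass the test in either direction. Rxra had 84.6, 81.3 and 79.8 CPM with kaempferol, against 75.4, 75.5 and 75.7 CPM in control. Every kaempferol library lay above every control library, as it did for 18.6% of all tested genes, and the log2 fold change was 0.12 (standard error 0.0496, adjusted p = 0.101 by edgeR). With upper-quartile scaling in place of the main scaling the Rxra value was 0.14 and passed (adjusted p = 0.0436 by edgeR). Rxrb had 53.5, 52.2 and 46.5 CPM with kaempferol and 48.8, 48.9 and 52.5 CPM in control, with overlapping groups and a log2 fold change of 0.02. Rxrg was at 0 in every library, so the partner pool was made of Rxra and Rxrb transcripts, at 52.3% ± 1.29 and 47.7% ± 1.29 per length with kaempferol and 50.5% ± 1.01 and 49.5% ± 1.01 in control (SD, n = 3 each).

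**Figure D2:**
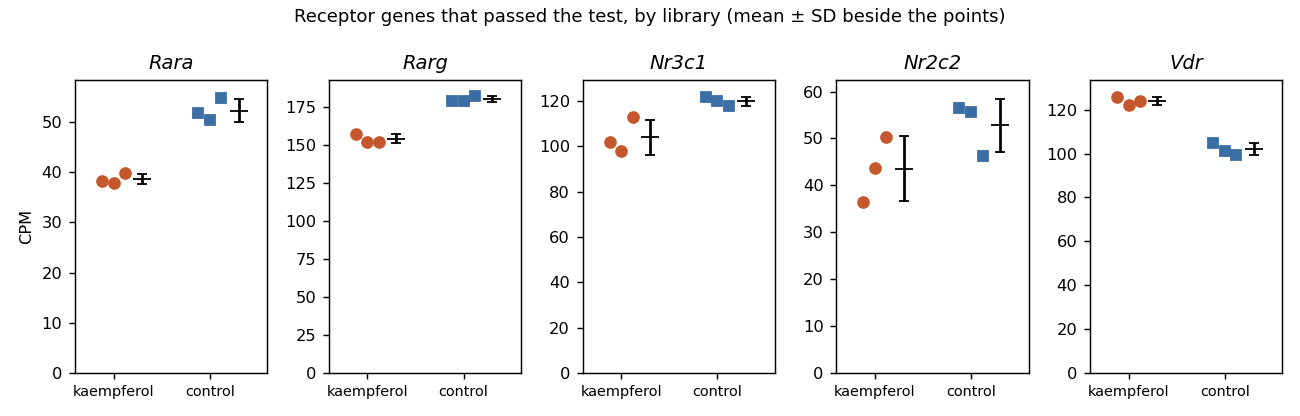
Level of the 5 nuclear receptor genes that passed the test, in CPM on axes that start at 0, with 1 point for each kaempferol library (left) and each control library (right) and the mean ± SD beside the points. Rara, Rarg, Nr3c1 and Vdr show separate groups, and Nr2c2 shows kaempferol libraries between 36.4 and 50.3 CPM beside control libraries between 46.3 and 56.5 CPM.

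Of the 19 genes for retinoid uptake, synthesis and breakdown, 10 were tested, 2 rose and 2 fell. Each share was 20.0%, against 11.3% higher and 12.6% lower over all tested genes. Their median log2 fold change was -0.12, against -0.0005 over all tested genes. The median of this list was -0.24 without kaempferol replicate 1, -0.19 without control replicate 1 and -0.03 without control replicate 2, while 2 genes rose and 2 fell in each of these settings. Dhrs3, a reductase that turns retinal back to retinol, had 38.5, 41.1 and 40.9 CPM with kaempferol, against 19.6, 18.4 and 24.2 CPM in control (log2 fold change 0.96, adjusted p = 3.77e-07 by edgeR). Rdh10, the dehydrogenase that makes retinal from retinol, rose by 0.57 on the log2 scale (adjusted p = 2.96e-06 by edgeR). Stra6, the membrane receptor for retinol-binding protein, had 3.16, 2.28 and 1.91 CPM with kaempferol, against 5.49, 5.96 and 5.78 CPM in control (log2 fold change -1.23, adjusted p = 0.000171 by edgeR). Dhrs9, another retinol dehydrogenase, fell by 1.07 on the log2 scale (adjusted p = 0.000239 by edgeR). The 2 called dehydrogenases that act on retinol therefore moved in opposite directions. Rdh10 was the more abundant of these 2, with 56.2 to 59.4 CPM with kaempferol, against 2.59 to 3.99 CPM for Dhrs9. Rdh11, of the same list, had 62.4, 64.7 and 62.1 CPM with kaempferol and 61.1, 63.5 and 55.2 CPM in control. Its log2 fold change of 0.07 did not pass. The retinoic acid-degrading enzymes Cyp26a1 and Cyp26b1, also known as sensitive targets of the receptors, stayed between 0.347 and 1.22 CPM in all libraries, with overlapping groups. Of 14 tested retinoic acid receptor targets, 2 rose (Dhrs3 and Tgm2, a transglutaminase, at 0.49) and 1 fell (Stra6). These were 14.3% and 7.14%, against 11.3% and 12.6% of all tested genes, and the median log2 fold change was -0.04.

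The glucocorticoid receptor gene Nr3c1 had 102, 98.0 and 113 CPM with kaempferol, against 122, 120 and 118 CPM in control. All kaempferol libraries were below all control libraries, with kaempferol replicate 3 nearest to them. Nr3c1 fell by 0.21 on the log2 scale (standard error 0.053, adjusted p = 0.00883 by edgeR). The call was lost without kaempferol replicate 2, at -0.16 (adjusted p = 0.065), and without control replicate 1, at -0.19 (adjusted p = 0.0568), and held in the other 10 of 12 edgeR and DESeq2 alternatives. Nr3c1 made up 94.0% ± 0.88 of steroid receptor transcripts per length with kaempferol and 95.1% ± 0.549 in control (SD, n = 3 each).

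The other steroid receptors were scarce. Nr3c2, the mineralocorticoid receptor gene, had 0.345, 0.898 and 1.17 CPM with kaempferol and 0.347, 0.501 and 0.603 CPM in control, with overlapping groups (log2 fold change 0.74, standard error 0.471). Esr1, the gene of estrogen receptor alpha, had 9.88, 11.2 and 9.14 CPM with kaempferol and 9.48, 11.3 and 9.28 CPM in control. The Esr1 libraries were interleaved, and the log2 fold change was 0.0038 (standard error 0.124, adjusted p = 0.986 by edgeR). Esr2, the gene of estrogen receptor beta, had 2, 2 and 1 reads with kaempferol and 0, 1 and 2 in control, and Pgr, the progesterone receptor gene and a known estrogen target, had no read with kaempferol and 1 read in a single control library. At this depth a difference in Esr2 or Pgr was not detectable.

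Genes known as glucocorticoid targets moved both ways. Of 20 listed, 16 were tested, 7 rose (43.8%, against 11.3% of all tested genes) and 4 fell (25.0%, against 12.6%). Their median log2 fold change was 0.17. Sgk1, a kinase induced by glucocorticoids, had 117, 106 and 116 CPM with kaempferol, against 68.9, 70.1 and 71.4 CPM in control (log2 fold change 0.69, adjusted p = 2.37e-08 by edgeR). Ddit4, an inhibitor of the mTOR pathway, rose by 0.66 and Angptl4, an inhibitor of lipoprotein lipase, by 0.37. Errfi1, an inhibitor of EGF receptor signalling, had 93.4, 92.3 and 92.0 CPM with kaempferol, against 148, 151 and 147 CPM in control (log2 fold change -0.68, adjusted p = 2.69e-09 by edgeR). Fkbp5, the receptor's own co-chaperone and among its most used target genes, fell by 0.22 (adjusted p = 0.0132 by edgeR), the clock gene Per1 fell by 0.35, and the leucine zipper gene Tsc22d3 had a log2 fold change of 0.15 that did not pass. Without kaempferol replicate 3 (-0.16) or control replicate 1 (-0.21) the Fkbp5 call was lost. Many of these genes also answer to other signals, and without kaempferol replicate 3 or without control replicate 1 the number that fell was 2 instead of 4.

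Of the 15 chaperones and co-chaperones that hold steroid receptors ready for ligand, all were tested, 1 rose (Ahsa1, 0.22) and 2 fell (Fkbp5, and the J-domain protein gene Dnajb1, at -0.18). The shares called were 6.67% higher and 13.3% lower, against 11.3% and 12.6% of all tested genes. Over the list the median log2 fold change was -0.01. The number that fell was 4 without the filter and without kaempferol replicate 1, and 1 without kaempferol replicate 3 and without control replicate 1. Neither of the cytosolic HSP90 genes, Hsp90aa1 and Hsp90ab1, passed the test. Of 10 listed enzymes that make or break down glucocorticoid, sterol and vitamin D ligands, 5 were tested and none was called in either direction. Their median log2 fold change was 0.08, and 1 was called higher without control replicate 1.

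Genes of the estrogen receptor target list were counted beside Esr1. Of 16 listed, 12 were tested, 5 rose (41.7%, against 11.3% of all tested genes) and none fell (against 12.6%). Their median log2 fold change was 0.23. Greb1, a growth regulator induced by estrogen in breast cells, had 5.17, 5.87 and 7.02 CPM with kaempferol, against 3.0, 2.39 and 2.47 CPM in control (log2 fold change 1.20, adjusted p = 0.000132 by edgeR). Ccn5, a matricellular protein gene, had 25.5, 23.9 and 23.8 CPM with kaempferol, against 11.7, 10.2 and 9.76 CPM in control (log2 fold change 1.21, adjusted p = 4.76e-08 by edgeR). Ctsd, for the lysosomal protease cathepsin D, rose by 0.68, Igfbp4, for an insulin-like growth factor binding protein, by 0.57 and the cyclin gene Ccnd1 by 0.31. Groups without overlap were found in 7 of the 12 tested genes on the higher side, these 5 among them, and in 3 on the lower side. Over all tested genes, 18.6% were separate on the higher side and 19.6% on the lower side. The 3 on the lower side, Xbp1 (-0.11), Ca12 (-0.49) and Krt19 (-0.69), did not pass the test. Pgr and Tff1, the target genes most closely tied to the receptor in breast and uterus, were at or near 0.

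Esrrb and Esrrg, the orphan estrogen-related receptors beta and gamma, were at the limit of detection. Esrrb had 1, 2 and 0 reads with kaempferol and 0, 2 and 6 in control, and Esrrg had 0, 3 and 0 reads with kaempferol and 2, 2 and 5 in control. Of 16 tested mitochondrial and fuel genes that these receptors are known to bind in muscle, 2 rose (Pdk4, a kinase that restrains pyruvate dehydrogenase, at 1.12, and Acadm, a fatty acid oxidation enzyme, at 0.42) and 1 fell (Atp5b, an ATP synthase subunit, at -0.13). These calls made up 12.5% higher and 6.25% lower, against 11.3% and 12.6% of all tested genes. The median of these targets was 0.01. The Atp5b call was lost with upper-quartile scaling (adjusted p = 0.117 by edgeR), with the stricter filter, with the replicate block (adjusted p = 0.111 by edgeR), and without kaempferol replicate 2, kaempferol replicate 3, control replicate 1 or control replicate 3, at -0.14 to -0.09.

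Vdr, the receptor for active vitamin D, was the receptor gene that rose. It had 126, 122 and 124 CPM with kaempferol, against 105, 101 and 99.2 CPM in control. The lowest kaempferol library was above the highest control library, and Vdr was 1.22 times the control level (log2 fold change 0.29, standard error 0.0452, adjusted p = 0.000136 by edgeR). It stayed higher in all 12 alternatives, between 0.27 and 0.32. Per length Vdr was at 21.9 ± 0.331 CPM per kilobase with kaempferol and 18.0 ± 0.485 CPM per kilobase in control (SD, n = 3 each).

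Most classical vitamin D targets were too low to test in these cultures. Cyp24a1, the vitamin D-degrading enzyme and the most sensitive target in most tissues, had no read in any library, and 4 of 11 listed targets were tested. Igfbp3, for a binding protein of insulin-like growth factors, had 55.8, 61.9 and 56.0 CPM with kaempferol, against 10.6, 9.91 and 9.70 CPM in control (log2 fold change 2.52, adjusted p = 1.29e-13 by edgeR). Cdkn1a, for the cell cycle inhibitor p21, rose by 0.94. Spp1, for osteopontin, had 2187, 2156 and 2260 CPM with kaempferol, against 2930, 2911 and 2987 CPM in control, and fell by 0.42 (adjusted p = 2.9e-07 by edgeR). The remaining tested target, Trpv6, had a log2 fold change of 0.12 that did not pass (adjusted p = 0.779 by edgeR). Of the 4 tested targets, 2 were thus called higher, against 11.3% of all tested genes, and 1 lower, against 12.6%. The called targets moved in both directions while Vdr rose.

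Thra, the thyroid hormone receptor gene of muscle and heart, had 46.3, 52.0 and 48.3 CPM with kaempferol and 50.2, 51.4 and 53.8 CPM in control. The groups overlapped and the log2 fold change was -0.08 (standard error 0.0643, adjusted p = 0.381 by edgeR). At its end Thra shares 5.7% of its exon bases with the clock receptor gene Nr1d1 on the opposite strand, which rose by 0.29 (adjusted p = 0.00608 by edgeR), so reads of the shared bases could be assigned to neither without strand. Thrb, the beta form, had no read with kaempferol and 1 read in a single control library.

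Dio2, the deiodinase that makes active thyroid hormone inside cells, had 8.16, 8.74 and 13.5 CPM with kaempferol, against 4.16, 4.23 and 4.58 CPM in control. The lowest kaempferol library was above the highest control library, and Dio2 rose by 1.23 on the log2 scale (standard error 0.181, adjusted p = 6.97e-05 by edgeR). Of 8 tested thyroid hormone targets, Me1, for malic enzyme, rose by 0.46, the corepressor gene Hr by 0.34 and the transcription factor gene Klf9 by 0.27, while Atp2a2, for the slow calcium pump, fell by 0.20. The Klf9 call was lost with DESeq2 (adjusted p = 0.0685) and without kaempferol replicate 2 (0.28), kaempferol replicate 3 (0.24) or control replicate 3 (0.22). Of the tested targets, 37.5% were called higher and 12.5% lower, against 11.3% and 12.6% of all tested genes. Their median log2 fold change was -0.04.

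**Figure D3:**
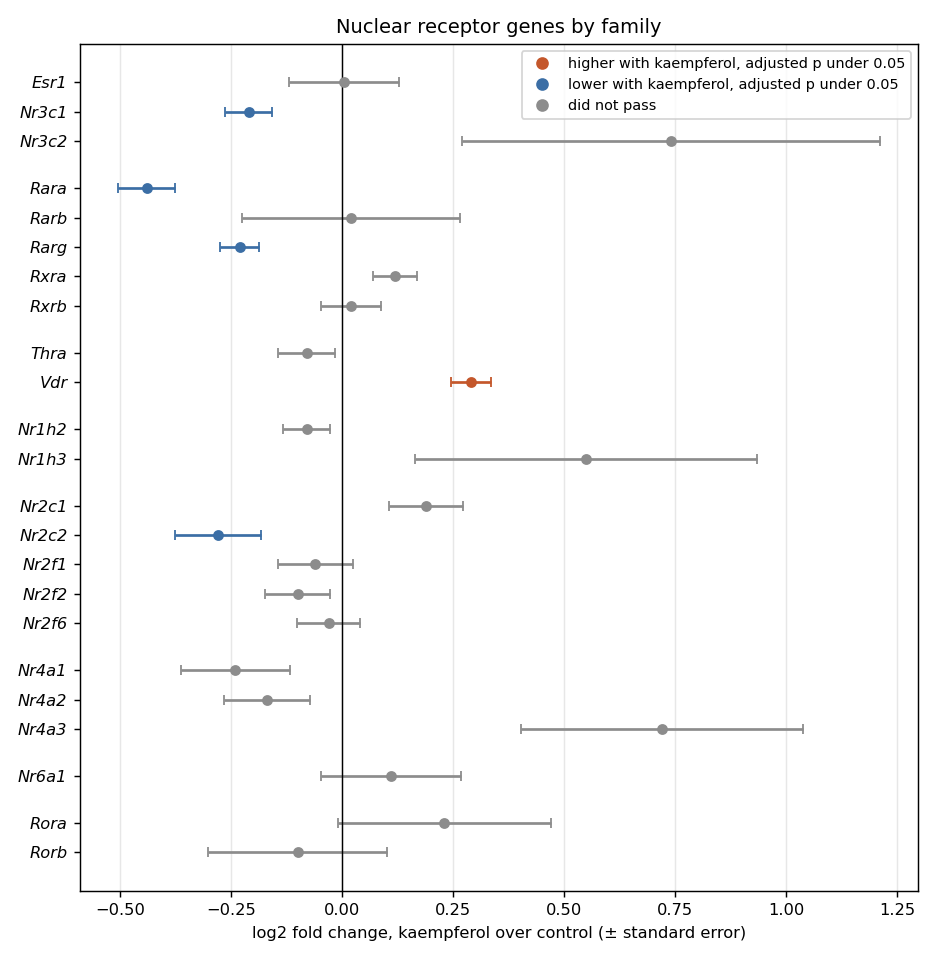
Log2 fold change of each tested nuclear receptor gene, kaempferol over control, by family, with bars of ± 1 standard error from edgeR. Vdr at 0.29 is the only gene called higher, and Rara, Rarg, Nr2c2 and Nr3c1, between -0.44 and -0.21, are called lower.

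The liver X receptors sense oxysterols and switch on cholesterol export and fatty acid synthesis. Nr1h2, the beta form, had 63.7, 64.7 and 66.0 CPM with kaempferol, against 68.6, 69.4 and 67.5 CPM in control. The kaempferol libraries all lay below the control libraries, as for 19.6% of all tested genes, but the small difference did not pass (log2 fold change -0.08, standard error 0.0526, adjusted p = 0.302 by edgeR). Nr1h3, the alpha form and a known target of the receptors themselves, had 0.747, 1.74 and 1.44 CPM with kaempferol and 1.27, 0.779 and 0.603 CPM in control, with overlapping groups (log2 fold change 0.55, standard error 0.385). Nr1h2 supplied 97.3% ± 0.966 of the transcripts of its family per length with kaempferol and 98.0% ± 0.96 in control (SD, n = 3 each).

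Of 16 listed liver X receptor targets, 13 were tested, 9 rose (69.2%, against 11.3% of all tested genes) and none fell (against 12.6%). Their median log2 fold change was 0.22. The number that rose was 6 with the replicate block and without kaempferol replicate 2, control replicate 1 or control replicate 2, where Fasn, Lpcat3 and Pltp, with changes of 0.22 or less, lost their calls. Abca1, the cholesterol exporter, had 6.72, 7.85 and 10.8 CPM with kaempferol, against 1.85, 2.95 and 3.13 CPM in control. The groups were far apart (log2 fold change 1.68, standard error 0.213, adjusted p = 1.4e-05 by edgeR). Lpl, for lipoprotein lipase, had 33.1, 44.4 and 37.2 CPM with kaempferol, against 17.1, 16.4 and 15.5 CPM in control (log2 fold change 1.22). Abcg1, a partner exporter of Abca1, rose by 0.68 and the desaturase gene Scd1 by 0.60. Srebf1 and Mylip, also known as direct targets of these receptors, had log2 fold changes of -0.03 and 0.11 and did not pass. Of the 13 tested targets, 12 had values above 0 and 1 below. Srebf1 had 151, 158 and 152 CPM with kaempferol and 155, 157 and 159 CPM in control. Several genes of the list are also targets of other lipid-sensing factors.

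**Figure D4:**
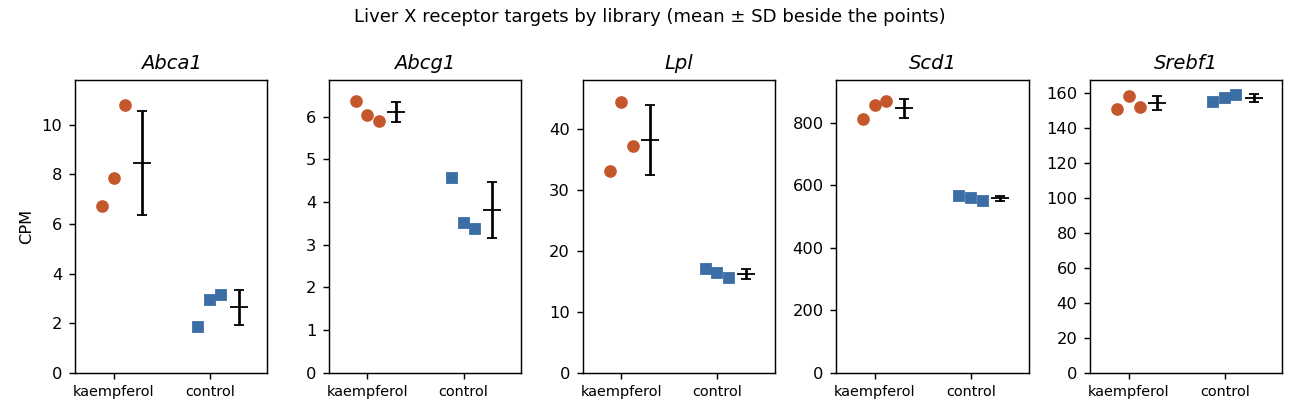
Level of 5 liver X receptor targets in CPM on axes that start at 0, with 1 point for each kaempferol library (left) and each control library (right) and the mean ± SD beside the points. Abca1, Abcg1, Lpl and Scd1 lie higher with kaempferol in every library, and the libraries of Srebf1 overlap between 151 and 159 CPM.

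The bile acid and xenobiotic receptors were at the floor. Nr1h4, the farnesoid X receptor gene, had no read with kaempferol and 3, 0 and 0 reads in control. Nr1i2, the pregnane X receptor gene, had 1, 0 and 2 reads with kaempferol and 1, 1 and 0 in control. Nr1i3, the constitutive androstane receptor gene, had 0, 1 and 0 reads with kaempferol and 3, 0 and 1 in control, and 74.85% of its exon bases lie under Tomm40l on the other strand. None of 8 tested detoxification genes known as targets of these receptors in liver fell, against 12.6% of all tested genes. Of the same 8, 3 rose (37.5%, against 11.3%). They were the glutathione transferase genes Gsta1 and Gstm1 and the epoxide hydrolase gene Ephx1 (1.43), which are also known as targets of other stress-response factors. Gsta1 rose by 3.39 on the log2 scale and has close relatives in its gene family that can share its reads. Ephx1 had 458, 473 and 440 CPM with kaempferol, against 169, 161 and 181 CPM in control.

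All 5 testicular and COUP orphan receptors, which have no established hormone, were tested, and 1 fell. Nr2c2, the testicular receptor 4 gene, had 36.4, 43.8 and 50.3 CPM with kaempferol and 56.5, 55.6 and 46.3 CPM in control. The groups overlapped, since kaempferol replicate 3 lay above control replicate 3. The log2 fold change was -0.28 (standard error 0.0971, adjusted p = 0.0455 by edgeR), just under the threshold, and 6 of 12 alternatives lost the call. The adjusted p in edgeR was 0.0713 with upper-quartile scaling, 0.226 without kaempferol replicate 1, 0.0924 without kaempferol replicate 2, 0.184 without control replicate 1 and 0.142 without control replicate 2. With the replicate block the adjusted p of Nr2c2 in edgeR was 0.0594. Of its exon bases, 30.73% are shared with Mrps25, a mitochondrial ribosomal protein gene on the opposite strand. Mrps25 moved the other way (log2 fold change 0.21, adjusted p = 0.0438 by edgeR). Nr2c2 also has a near-identical match in Gm42933, a gene with which it shares no exon bases. The match had at least 95% identity over at least 50% of the shorter transcript. Its effect on the Nr2c2 counts was not tested.

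Nr2c1, the gene of testicular receptor 2, the dimer partner of Nr2c2, had 22.6, 21.6 and 24.3 CPM with kaempferol, against 19.4, 21.2 and 19.6 CPM in control. The groups were separate by a narrow margin, and the difference did not pass (log2 fold change 0.19, standard error 0.0833, adjusted p = 0.115 by edgeR). Nr2f1, a COUP transcription factor gene, had 34.2, 31.1 and 27.4 CPM with kaempferol and 30.1, 34.5 and 31.8 CPM in control. Nr2f2, its close relative, had 41.6, 40.0 and 41.3 CPM with kaempferol and 47.6, 44.6 and 39.2 CPM in control. Both genes had overlapping groups, with log2 fold changes of -0.06 and -0.10. Nr2f6, a further COUP relative, had 53.3, 54.4 and 44.9 CPM with kaempferol and 52.5, 52.6 and 50.9 CPM in control (log2 fold change -0.03), and 54.37% of its exon bases are shared with Ocel1 on the opposite strand.

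The NR4A receptors are ligand-independent and are induced within the hour by many stimuli. Nr4a1 had 6.95, 7.61 and 7.87 CPM with kaempferol, against 8.67, 8.63 and 9.28 CPM in control. The groups were separate but the difference did not pass (log2 fold change -0.24, standard error 0.123, adjusted p = 0.169 by edgeR). Nr4a2, the most abundant of the family per length, had 17.0, 15.6 and 17.9 CPM with kaempferol and 18.8, 20.8 and 17.1 CPM in control, with overlap and a log2 fold change of -0.17. Nr4a3 had 1.61, 1.38 and 2.34 CPM with kaempferol, against 1.27, 0.835 and 1.14 CPM in control. These groups were separate at low counts, but the difference did not pass (log2 fold change 0.72, standard error 0.318, adjusted p = 0.113 by edgeR). Nr4a2 held 63.1% ± 1.8 of the family's transcripts per length with kaempferol and 63.2% ± 3.3 in control (SD, n = 3 each).

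Other immediate early genes, which share the fast induction of the NR4A genes, were all tested. Of 18 genes, 5 rose (27.8%, against 11.3% of all tested genes) and 6 fell (33.3%, against 12.6%). Their median log2 fold change was -0.05. Egr1, a zinc finger factor gene, had 44.1, 53.1 and 50.1 CPM with kaempferol, against 135, 141 and 134 CPM in control (log2 fold change -1.48, adjusted p = 4.09e-12 by edgeR). The related Egr3 fell by 1.25 and Egr2 by 0.99, while Klf4, a Krüppel-like factor gene, rose by 0.68. None of the 3 NR4A genes passed the test beside them. Of 10 tested glucose and fat genes tied to NR4A receptors in muscle, Pdk4 (1.12) and the phosphatidate phosphatase gene Lpin1 (0.71) rose. Eno3, for muscle enolase, fell by 0.51. These calls made up 20.0% higher and 10.0% lower, against 11.3% and 12.6% of all tested genes.

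Of the remaining receptors, Nr6a1, the germ cell nuclear factor gene, had 9.82, 6.83 and 7.50 CPM with kaempferol and 8.61, 7.46 and 6.27 CPM in control, with overlap and a log2 fold change of 0.11. Rora, a receptor that drives clock and lipid genes, had 2.24, 2.04 and 2.23 CPM with kaempferol, against 1.85, 1.95 and 1.75 CPM in control. The Rora groups were separate, yet the difference did not pass at this depth (log2 fold change 0.23, standard error 0.240, adjusted p = 0.538 by edgeR). Rorb, known from retina and brain, had 3.22, 3.47 and 3.46 CPM with kaempferol and 4.51, 3.01 and 3.37 CPM in control, with overlap. Nr5a2, known for liver and ovary, and the receptors without a DNA-binding domain, Nr0b1 and Nr0b2, had no read in any library. Of 6 tested ROR targets, Nr1d1 rose by 0.29 and Clock fell by 0.23. Each made up 16.7% of the tested list, against 11.3% called higher and 12.6% lower over all tested genes. The Clock call was lost without kaempferol replicate 1 (-0.19), kaempferol replicate 2 (-0.18) or control replicate 2 (-0.18).

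Coregulators are shared by most of the receptors. Of 22 coactivators, all were tested, 12 fell (54.5%, against 12.6% of all tested genes) and none rose, with a median log2 fold change of -0.21. Ep300, a histone acetyltransferase gene, had 127, 131 and 149 CPM with kaempferol, against 175, 166 and 168 CPM in control (log2 fold change -0.33, adjusted p = 0.000311 by edgeR). Its relative Crebbp fell by 0.28, the acetyltransferase gene Kat2b by 0.30 and the arginine methyltransferase gene Prmt1 by 0.27. Of the p160 coactivators that dock on the ligand-binding domain, Ncoa2 fell by 0.26 and Ncoa3 by 0.21, while Ncoa1 at -0.19 and the mediator gene Med1 at -0.04 did not pass. The differences were small, and without kaempferol replicate 2, control replicate 1 or control replicate 2 the number that fell was 7 in each case. The Crebbp call was lost in those settings, at -0.26 to -0.21, and the Ncoa3 call without kaempferol replicate 1, kaempferol replicate 2, control replicate 2 or control replicate 3, at -0.22 to -0.18, and with DESeq2 or upper-quartile scaling. The markers of dividing cells fell in the same libraries, and their part in this was not tested.

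Of the 11 corepressors, 10 were tested, with a median log2 fold change of -0.15. Of these 10, 5 fell, against 12.6% of all tested genes, and 1 rose, against 11.3%. Sin3a, a scaffold of deacetylase complexes, fell by 0.29, Lcor by 0.36 and Gps2 by 0.28, while Hr, a corepressor of thyroid hormone and vitamin D receptors, rose by 0.34. Ncor1, at -0.10, and Hdac3, at -0.03, did not pass, although Ncor1 did without kaempferol replicate 3 (-0.15, adjusted p = 0.0486 by edgeR). The number that fell was 2 without kaempferol replicate 2, and 3 without kaempferol replicate 1, control replicate 1 or control replicate 3. The Gps2 call was lost without kaempferol replicate 2, kaempferol replicate 3, control replicate 1 or control replicate 3, at -0.28 to -0.21, and the Lcor call without kaempferol replicate 1, kaempferol replicate 2, control replicate 1 or control replicate 3, at -0.36 to -0.26. Coactivators and corepressors thus had medians on the same side of 0.

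**Figure D5:**
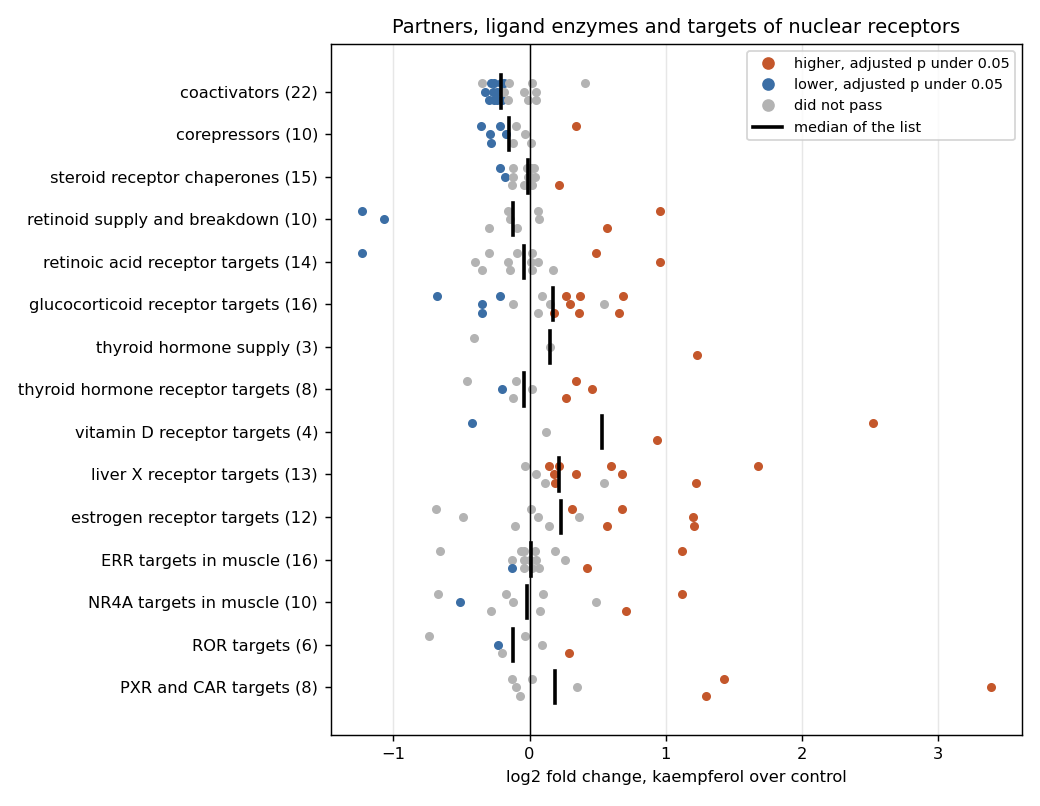
Log2 fold change, kaempferol over control, of the tested genes of lists of receptor partners, ligand enzymes and targets, with 1 point for each gene. The number tested stands in brackets and a black bar marks the median. The lists of glucocorticoid and sterol ligand enzymes and of immediate early genes are not drawn. The coactivator points lie mostly below 0, with a median of -0.21, and the liver X receptor targets mostly above 0, with a median of 0.22.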

How the data were processed

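Poly(A) RNA of 3 kaempferol and 3 control cultures was sequenced. The deposited gene counts were made by the authors from reads aligned to mm10, and the submitters' processing notes list HISAT2 2.0.5 and featureCounts 1.5.0-p3, beside fastp and StringTie 1.3.3b, and, also in the study's methods, DESeq2 1.20.0. Whether counting used strand is not given in the sources used here.

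Counts were filtered with filterByExpr (minimum count 10, minimum total 15), scaled with TMM factors and tested with edgeR 4.0.16 quasi-likelihood F tests in R 4.3.3, without covariates, with p-values of the 14558 tested genes adjusted by Benjamini-Hochberg. CPM used TMM-scaled totals. As alternatives, each library was left out, a replicate block was added, the filter was dropped or set to 10 counts throughout, TMM was replaced by upper-quartile or RLE factors, and DESeq2 1.42.0 was run. The test was checked on simulated counts. Depth was 16575790 to 18625272 counts a library.

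Every receptor gene is named. Of each list, up to 4 called genes with the largest change and genes that give the list its name were to be named. Ccnd1, Per1, Fkbp5, Tsc22d3, Ncoa2, Ncoa3, Tff1, Xbp1, Ca12, Krt19, the HSP90 and Cyp26 genes were added after their values were seen. The genes and lists were chosen with earlier results of these data known.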

Additional observations from a re-analysis of the deposited data

How the results depend on the processing

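Over 275 fold changes of the receptor genes under the alternatives, 253 kept their direction and their side of the threshold, 8 lost a call, 1 gained a call and 13 uncalled values changed sign. The sign changes arose when 1 library was left out. With 1 library left out, Esr1 ranged from -0.08 to 0.11, Rarb from -0.13 to 0.34, Rxrb from -0.02 to 0.08, Nr2f1 from -0.14 to 0.03, Nr2f6 from -0.08 to 0.06, Nr6a1 from -0.06 to 0.23 and Rorb from -0.22 to 0.09. The number of receptors called higher was 2 with upper-quartile factors, against 1 with TMM. Upper-quartile factors moved the median of all genes to 0.03 and split the calls over all genes 1966 higher to 1424 lower (58.0% higher), against 1647 to 1840 (47.2%). The number called lower was 2 to 4 with 1 library left out, and 2 without kaempferol replicate 2 or control replicate 1. Over all genes the number called lower was 1210 to 1628 with 1 library left out, the lowest without control replicate 1. Over all alternatives the median was -0.13 to 0.02 for retinoic acid receptor targets, -0.04 to 0.02 for thyroid hormone receptor targets, -0.02 to 0.07 for ERR targets and -0.08 to -0.01 for immediate early genes. The cause of these changes was not tested.

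Samples with the same replicate number did not deviate together (r of -0.0246, -0.0612 and -0.0453 across genes), so the numbers do not pair the libraries. The replicate block gave 1 receptor called higher and 3 lower, and 1337 higher and 1413 lower over all genes. DESeq2 called 1251 genes higher and 1510 lower.

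Counts under about 10 reads a library left 12 receptors without a test, and 3 libraries a group leave changes of low receptors such as Nr4a3, Nr3c2 and Nr1h3 unresolved. Exons shared with genes on the other strand limit Nr2c2, Nr2f6, Rarb and Nr1i3. Reads of Nr2c2 could also be shared with the near-identical Gm42933, which was not tested.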
